A study of Mus musculus with 10 samples.

Results

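Microglia are the resident macrophages of the retina and brain, and the 31 genes described here mark them and related myeloid cells. They were chosen as a list of symbols, not by a cut on measured values, out of 23258 gene symbols in the table. Earlier results of these data were known when the list was made. Of the 31, 30 stood under the listed symbol, and the transcription factor gene Spi1 was read from the row with its older symbol, Sfpi1. The libraries were not made from microglia. Each came from about 1000 sorted retinal ganglion cells, neurons that send visual signals to the brain, taken from C57BL/6 mice at postnatal day 6. All mice carried Hb9-GFP, a reporter in which Hb9 (Mnx1) sequences drive green fluorescent protein, and cells were sorted on it. One group of 5 libraries was wild-type and the other 5 lacked Satb1 (Satb1-/-), a chromatin organizer. The replicates of a genotype came from different litters. The labels do not say which part of Satb1 was deleted. Levels are given in TPM, the abundance of a transcript relative to all others, which is scaled for transcript length and to the same total in every library. Sequencing depth cannot be read from TPM, so it is unknown here and no counting interval was computed.

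Microglia depend on signalling through the receptor CSF1R and on the transcription factors PU.1 (Spi1) and IRF8. At rest they carry receptors such as CX3CR1, which binds a neuronal chemokine, and P2RY12, which senses nucleotides. During development they clear dying neurons and prune synapses in the retina, using complement C1q, the receptor TREM2 with its adaptor TYROBP, and lysosomal proteases. The list was therefore split by role into 11 homeostatic genes, 18 genes of phagocytosis, lysosome and activation, and the pair Mrc1 and Cd74, known for perivascular macrophages and antigen presentation. Many of the phagocytic genes, the C1q genes among them, are also expressed by resting microglia, and Apoe and Hmox1 are known in other cells too.

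Promoter sequence is shown for 4 genes because the members were high and low in the same libraries and PU.1, the product of Spi1, is the best known shared regulator of myeloid genes. The letters searched were GAGGAA, the core of the PU.1 motif, on both strands, in RefSeq windows of GRCm38.p6 from 250 bases before to 50 after a transcript start. The windows table matched 23 of the 31 members, with 29 windows. GAGGAA was found in 17 of the 29 windows (58.6%), against 28.3% of the 32851 windows of all genes. Other factors that bind GGAA share these letters, and a match is a description, not a binding site. Itgam held 2 matches before its start, C1qb held 1 at 30 bases before its start, and Trem2 held 1 at 40 bases before its start. Fcer1g, the member with the largest difference between genotypes, held none. Among members with a window that were close to the shared pattern, Mpeg1 and Cx3cr1 held none, C1qc held 1 and Cd53 held 2. Among those far from that pattern, Aif1 held 1, while P2ry12 and Lgmn, like Fcer1g, held none. The 250 bases before each start are given on the strand of the gene, with matches on either strand in capitals, for C1qb (chr4:136886201-136886450, minus), Trem2 (chr17:48346151-48346400, plus), Itgam (chr7:128062390-128062639, plus) and Fcer1g (chr1:171234350-171234599, minus).
C1qb: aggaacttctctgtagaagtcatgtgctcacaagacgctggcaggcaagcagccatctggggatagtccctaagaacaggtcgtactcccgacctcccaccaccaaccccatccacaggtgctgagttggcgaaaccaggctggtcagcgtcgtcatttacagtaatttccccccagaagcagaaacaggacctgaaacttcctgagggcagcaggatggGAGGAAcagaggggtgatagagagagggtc
Trem2: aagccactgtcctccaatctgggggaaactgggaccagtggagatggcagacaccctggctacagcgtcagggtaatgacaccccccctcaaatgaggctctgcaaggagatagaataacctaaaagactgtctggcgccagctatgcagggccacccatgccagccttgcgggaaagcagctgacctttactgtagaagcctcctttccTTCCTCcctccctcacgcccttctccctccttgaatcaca
Itgam: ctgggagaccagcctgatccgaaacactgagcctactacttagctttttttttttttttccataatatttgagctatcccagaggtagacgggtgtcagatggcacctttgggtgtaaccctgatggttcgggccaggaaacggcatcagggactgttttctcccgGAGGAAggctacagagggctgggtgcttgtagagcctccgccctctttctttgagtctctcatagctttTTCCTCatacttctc
Fcer1g: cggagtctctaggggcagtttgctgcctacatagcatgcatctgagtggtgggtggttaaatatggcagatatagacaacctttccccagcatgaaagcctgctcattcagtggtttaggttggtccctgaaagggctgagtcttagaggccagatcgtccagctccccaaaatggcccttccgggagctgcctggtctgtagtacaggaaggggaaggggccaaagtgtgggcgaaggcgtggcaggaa

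The series as a whole set limits to these values. Ganglion cell transcripts were abundant in every library, where a list of 14 pan-ganglion cell genes summed to 18740 to 104079 TPM, while Mnx1, the gene behind the reporter, was at 0 to 8.04 TPM. From 10073 to 12555 genes reached 1 TPM, depending on the library. Satb1 (chromosome 17, 51736187 to 51833290, minus strand, mm10) was at 304, 189, 414, 132 and 38.6 TPM across wild-type 1 to 5 and at 170, 126, 83.1, 34.9 and 24.1 TPM across knockout 1 to 5, so transcripts of the targeted gene were read in both genotypes. The groups overlapped (log2 difference -1.25, SE 0.71; limma adjusted p = 0.992), and this gene is a weak check of the genotype labels. Wild-type 5, knockout 4 and knockout 5 stand apart from the other 7 libraries in these data, with cytosolic ribosomal protein genes at 11.5% to 12.8% of all TPM against 3.72% to 7.88%. Results that rest on them are given with and without them.

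The summed level of the 31 genes varied widely among libraries of each genotype. It was 1688, 1219, 84.9, 6261 and 1600 TPM across wild-type 1 to 5 and 602, 6179, 1798, 1340 and 24019 TPM across knockout 1 to 5. The highest library of each genotype thus exceeded its lowest many times over, and the genotypes overlapped. As a share of all TPM, the genes took from 0.00849% in wild-type 3 to 2.4% in knockout 5. Apoe and Hmox1 made up most of the sum in knockout 5; without those 2 genes the sum was 4460 TPM there, 4272 TPM in wild-type 4, 4920 TPM in knockout 2 and 64.9 to 1778 TPM in the other 7 libraries. In sorted bulk samples, a sum like this cannot tell fewer myeloid cells from less myeloid RNA per cell.

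The same libraries were high or low for most of the genes. Of the 27 members that passed the filter (at least 1 TPM in at least 5 libraries), 23 had knockout 2 among their 3 highest libraries, 20 had wild-type 4 there and 16 had knockout 5 there. At the other end, 26 had wild-type 3 among their 3 lowest libraries, 20 had knockout 3 and 17 had knockout 1. The number of the 31 genes with at least 1 TPM was 7 in wild-type 3, 19 in knockout 1, 20 in knockout 3 and 22 to 30 in the other libraries. In wild-type 3, 14 of the 31 were listed at 0.

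**Figure D1:**
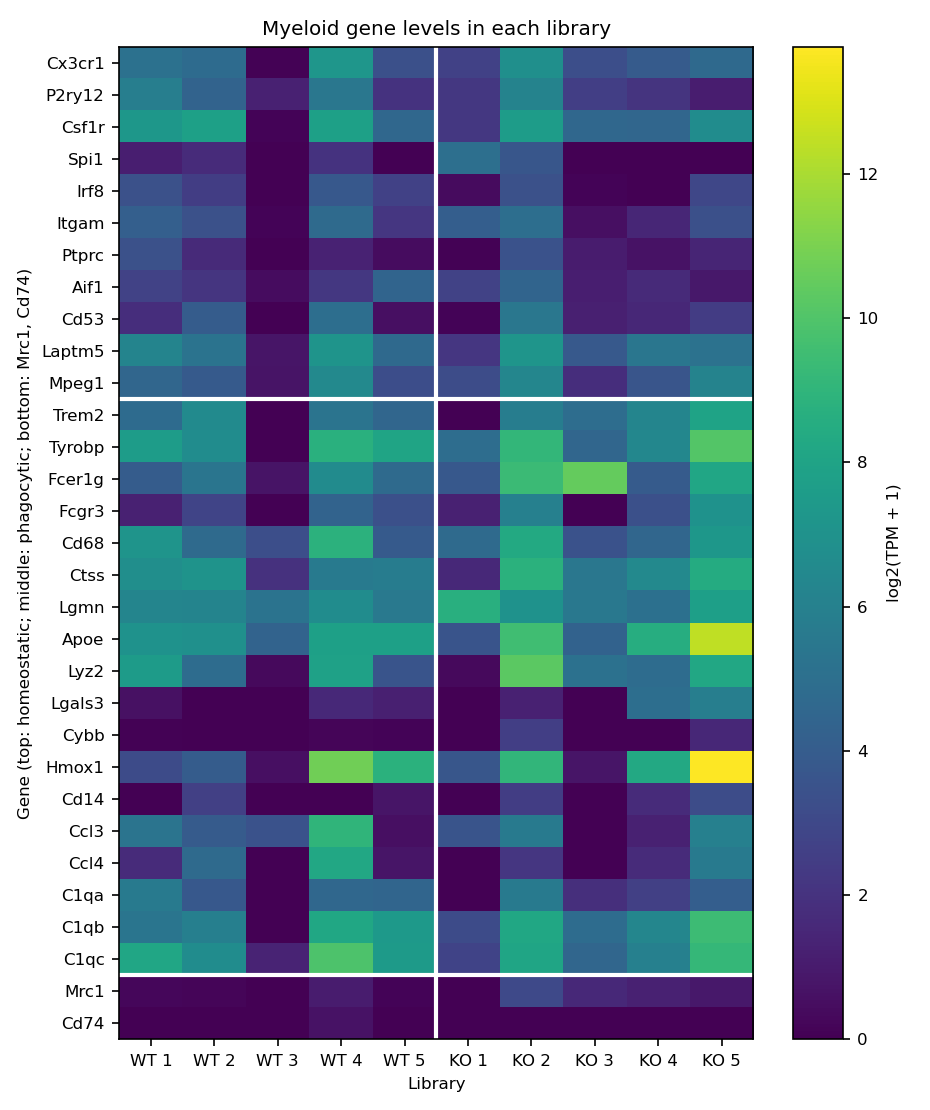
Level of each of the 31 genes (rows, in log2(TPM + 1), colour) in each of the 10 libraries (columns; WT, wild-type; KO, Satb1 knockout; white lines separate genotypes and role groups). Wild-type 4, knockout 2 and knockout 5 are bright in most rows, and wild-type 3 is dark, with 14 of the 31 genes listed at 0.

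Among homeostatic genes, Csf1r, which encodes the receptor microglia need to survive (chromosome 18, 61100598 to 61132149, plus strand), was at 154, 223, 0.0843, 228 and 23.2 TPM across wild-type 1 to 5 and 3.78, 191, 23.5, 21.9 and 104 TPM across knockout 1 to 5. The fractalkine receptor gene Cx3cr1 (chromosome 9, 119901616 to 120069879, minus strand) was at 33.8, 26.9, 0.0613, 150 and 9.4 TPM across wild-type and 5.28, 115, 8.71, 14.6 and 25.4 TPM across knockout. Both genes were high in wild-type 4 and knockout 2 and close to 0 in wild-type 3, and the genotypes overlapped. P2ry12, the purine receptor gene of resting microglia (chromosome 3, 59216272 to 59262871, minus strand), was at 59.2, 20.1, 1.41, 42.4 and 2.98 TPM across wild-type and 3.75, 71.2, 4.89, 3.24 and 1.15 TPM across knockout. Unlike Csf1r and Cx3cr1, it was at its lowest in knockout 5, and 4 of the 5 knockout libraries were below 5 TPM.

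Laptm5, which encodes a lysosomal membrane protein of blood-derived cells, was at 73.8, 37.2, 0.729, 137 and 25.4 TPM across wild-type and 3.53, 143, 13.5, 41.8 and 34.9 TPM across knockout. Mpeg1, which encodes the pore-forming protein perforin-2 of macrophages, was at 22.1, 13.8, 0.642, 88 and 8.52 TPM across wild-type and 8.16, 77.6, 2.42, 11.3 and 71.3 TPM across knockout. These 2 genes followed Cx3cr1, with their highest levels in wild-type 4 and knockout 2. The other homeostatic genes were lower. Itgam, the CD11b integrin gene, ranged from 0.0962 TPM (wild-type 3) to 29.9 TPM (knockout 2), the tetraspanin gene Cd53 from 0.0378 TPM (wild-type 3) to 42.2 TPM (knockout 2), and Aif1, which encodes the microglial marker IBA1, from 0.356 TPM (wild-type 3) to 20.5 TPM (wild-type 5). Ptprc, the pan-leukocyte CD45 gene, reached at most 9.99 TPM and Irf8 at most 12.7 TPM. Spi1 was listed at 0 in 5 libraries, among them knockout 5, where Tyrobp was at its highest, and reached 31.5 TPM in knockout 1, where most other members were low. Both transcription factor genes were thus low in most libraries beside the abundant effector genes. Spi1 was also irregular, while Irf8 was closer to the other members. Their median Spearman's rho with the other members over the 10 libraries was 0.29 for Spi1 and 0.67 for Irf8.

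Complement C1q, whose A, B and C chains assemble into 1 protein and are encoded side by side on chromosome 4, tags synapses and debris for removal. C1qc (136889804 to 136893065, minus strand) was at 284, 102, 1.59, 969 and 181 TPM across wild-type and 5.72, 273, 22.7, 62.1 and 563 TPM across knockout. C1qb (136880129 to 136886187, minus strand) was at 39.2, 60.4, 0, 297 and 171 TPM across wild-type and 7.71, 292, 27.9, 79.7 and 681 TPM across knockout. C1qa (136895917 to 136898803, minus strand) was at 49.3, 12.9, 0, 23.6 and 21.7 TPM across wild-type and 0, 50.7, 2.61, 5.07 and 16.4 TPM across knockout. Per unit of length, C1qc was the most abundant of the 3 in all 5 wild-type libraries and C1qb in all 5 knockout libraries. The ratio of C1qb to C1qc was 0.138, 0.592, 0, 0.306 and 0.944 for wild-type 1 to 5 and 1.35, 1.07, 1.23, 1.28 and 1.21 for knockout 1 to 5. This ratio was chosen after the values were seen and was not tested. C1qa was below both others in all libraries but wild-type 1, where it was above C1qb, and wild-type 3, where both C1qa and C1qb were listed at 0. The ratio of C1qc to C1qa ran from 5.38 in knockout 2 to 41.1 in wild-type 4 over the 8 libraries with C1qa above 1 TPM, so the 3 neighbouring genes were not read in a fixed ratio.

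TYROBP and the Fc receptor gamma chain (FCER1G) are short signalling adaptors that pair with receptors lacking a signalling tail of their own. Tyrobp (chromosome 7, 30413760 to 30417585, plus strand) was at 192, 103, 0, 428 and 263 TPM across wild-type and 29.3, 545, 21.9, 82.8 and 1065 TPM across knockout. Its partner receptor gene Trem2 (chromosome 17, 48346401 to 48354147, plus strand) was at 27.4, 94.6, 0, 38.5 and 21.9 TPM across wild-type and 0, 55.5, 29.8, 75.5 and 248 TPM across knockout. Both were highest in knockout 5 and listed at 0 in wild-type 3. Fcer1g (chromosome 1, 171229572 to 171234365, minus strand) was at 14.9, 39.3, 0.634, 97.8 and 26.6 TPM across wild-type and 13.1, 678, 1483, 14.6 and 286 TPM across knockout. Its highest level was in knockout 3, a library in which Tyrobp stood at 21.9 TPM, Cd68 at 9.89 TPM and the Fc receptor gene Fcgr3 at 0. Of the 5 knockout libraries, 3 were above every wild-type library for Fcer1g, and 2 (knockout 1 and 4) lay within the wild-type range. Fcgr3, whose product signals through FCER1G, ranged from 0 to 19.8 TPM across wild-type and from 0 to 130 TPM across knockout. Fcgr3 has close paralogs, and reads of such genes may have been split between them.

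**Figure D2:**
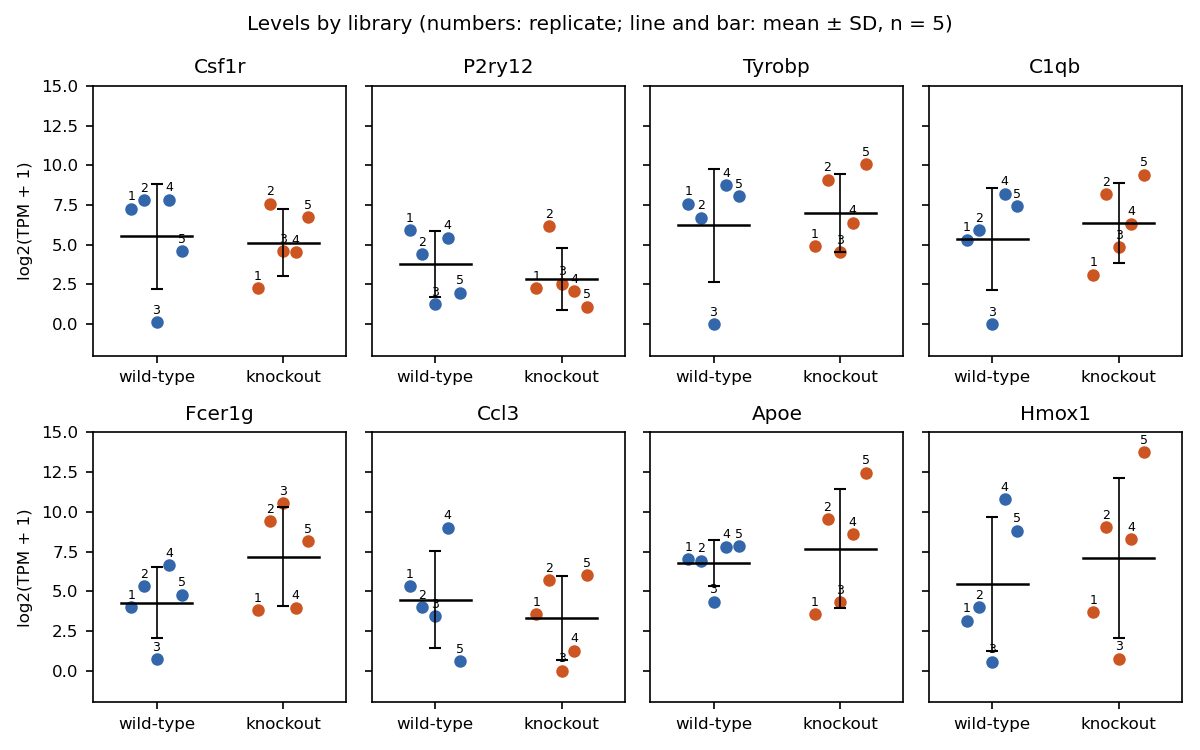
Level of 8 genes in log2(TPM + 1) in each wild-type and Satb1 knockout library; points are libraries with their replicate numbers, the line is the mean and the bar the SD (n = 5 each). The genotypes overlap in all 8 panels; knockout 5 is highest for Tyrobp, C1qb, Apoe and Hmox1 but lowest for P2ry12, and knockout 3 is highest for Fcer1g.

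Lysosomal and phagocytic genes were read in nearly every library. Ctss, which encodes the protease cathepsin S, was at 111, 135, 2.87, 49.4 and 53.1 TPM across wild-type and 1.99, 444, 43.5, 88.9 and 355 TPM across knockout. Cd68, which encodes a lysosomal membrane glycoprotein of macrophages, was at 140, 25.6, 8.96, 464 and 13.8 TPM across wild-type and 26.4, 328, 9.89, 22 and 156 TPM across knockout. Both were high in knockout 2 and 5, while wild-type 4 was high for Cd68 and not for Ctss. Lyz2, the macrophage lysozyme gene, was at 189, 28.3, 0.259, 237 and 10.8 TPM across wild-type and 0.253, 1269, 33.6, 28.6 and 300 TPM across knockout. Lyz2 has a near-identical paralog, Lyz1, so its level is uncertain. Lgmn, which encodes the protease legumain, was at 75.2, 73, 37.3, 104 and 46.7 TPM across wild-type and 405, 127, 43.9, 33.2 and 219 TPM across knockout. It was the least variable of the abundant members, and its highest library, knockout 1, was among the lowest for most others.

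Markers of more strongly activated cells were lower. Lgals3, which encodes galectin-3, was at 0.561, 0, 0, 2.01 and 1.3 TPM across wild-type and 0, 1.39, 0, 30.4 and 57.6 TPM across knockout. Only knockout 4 and 5 were above 3 TPM, and both belong to the libraries that stand apart. Cd14, the endotoxin co-receptor gene, reached 8.31 TPM at most and was listed at 0 in 5 libraries. Cybb, which encodes a subunit of the phagocyte oxidase, reached 4.94 TPM and was at least 1 TPM in 2 libraries, knockout 2 and 5. Neither passed the filter. The chemokine genes Ccl3 and Ccl4, rapidly induced in handled microglia, lie close together on chromosome 11. Ccl3 was at 38.9, 14.8, 9.94, 511 and 0.5 TPM across wild-type and 10.7, 50.8, 0, 1.38 and 63.3 TPM across knockout. For Ccl4 the values were 2.24, 25.6, 0, 305 and 0.716 TPM across wild-type and 0, 3.61, 0, 2.24 and 47.3 TPM across knockout. Wild-type 4 was the highest library for both, and knockout 5 the second highest. Wild-type 4 also held the largest sum of 12 dissociation response genes, at 617 TPM against 75.1 to 363 TPM elsewhere. Of these genes, Zfp36 (201 TPM) and Dusp1 (105 TPM) were highest there, while Jun (24 TPM) and Jund (33.8 TPM) were not. In knockout 5 the sum was 130 TPM. The part of that response in the chemokine levels was not tested.

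Apoe and Hmox1 reached the highest TPM of all members. Apoe, which encodes the lipid carrier apolipoprotein E (chromosome 7, 19696109 to 19699188, minus strand), was at 127, 120, 19.5, 225 and 228 TPM across wild-type and 10.9, 735, 18.8, 387 and 5651 TPM across knockout. Hmox1, which encodes the heme-degrading enzyme heme oxygenase 1 (chromosome 8, 75093621 to 75100589, plus strand), was at 7.88, 15.1, 0.483, 1764 and 450 TPM across wild-type and 11.8, 524, 0.694, 313 and 13908 TPM across knockout. In knockout 5 Hmox1 ranked 9 among all gene symbols and took 1.39% of the TPM, and Apoe ranked 22 with 0.565%. Globin and other erythroid genes, a list of 7 found in the table, summed to 272 TPM in knockout 5, 120 TPM in knockout 4 and 77.6 TPM in wild-type 4, and to 0 to 3.52 TPM in the other 7 libraries. Müller glia and astrocyte genes, of which 11 were found, summed to 2230 TPM in knockout 5 and 177 to 531 TPM elsewhere. That sum came mostly from the intermediate filament gene Vim, at 2118 TPM in knockout 5, while the glial genes Glul and Dkk3 stood there at 61.5 and 31.3 TPM, within or below their range in the other libraries. The part of erythroid or glial RNA in the Apoe and Hmox1 levels was not tested.

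Markers of perivascular and border macrophages and of antigen presentation were low in most libraries. Mrc1, the mannose receptor gene of perivascular macrophages, reached 7.18 TPM in knockout 2 and was at most 2.05 TPM elsewhere, and Cd74, the invariant chain gene of antigen presentation, was listed at 0 in 9 libraries and at 0.583 TPM in wild-type 4. Of 12 border macrophage and monocyte genes, 6 were below 1 TPM in every library, and the list summed to 1.49 to 37.4 TPM. Its scavenger receptor gene Stab1 was at 0.307 to 30.9 TPM. Pf4 was at 23.3 TPM in knockout 4 and under 1 TPM elsewhere. Neutrophil genes summed to at most 17.3 TPM and lymphoid genes to at most 6.31 TPM. MHC class II genes summed to 0.0574 to 88.8 TPM, with 53.9 TPM of H2-Ab1 in knockout 4, a library in which Cd74 was listed at 0.

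The homeostatic and phagocytic groups were set side by side within each library. Summed over the 11 homeostatic genes, the level was 389, 358, 3.42, 725 and 99.7 TPM across wild-type 1 to 5 and 78.1, 723, 57.3, 99.4 and 260 TPM across knockout 1 to 5. The phagocytic genes without Apoe and Hmox1, 16 in all, summed to 1164, 726, 61.5, 3546 and 822 TPM and to 502, 4191, 1719, 538 and 4199 TPM. Both sums were high in wild-type 4 and knockout 2 and lowest in wild-type 3. Knockout 5 was close to knockout 2 and above wild-type 4 in the phagocytic sum, at a lower homeostatic sum than either. As a share of both groups together, the homeostatic genes held 25%, 33%, 5.27%, 17% and 10.8% in wild-type and 13.5%, 14.7%, 3.22%, 15.6% and 5.83% in knockout. The share overlapped between genotypes. In knockout 3 the low share came with Fcer1g, which alone made up 1483 of the 1719 TPM. P2ry12 stood at 0.108 TPM per 100 TPM of Tyrobp in knockout 5 and 1.13 in wild-type 5, against 3.91 in knockout 4 and 9.9 to 30.9 in the other 6 libraries with Tyrobp above 0. Csf1r stood at 8.83 and 9.8 per 100 in wild-type 5 and knockout 5, the lowest values of that ratio, and at 12.9 to 216 in the other 7. Wild-type 5 and knockout 5 both belong to the libraries that stand apart, with ribosomal protein shares of 11.5% and 12.8%; the part of that difference in these ratios was not tested.

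**Figure D3:**
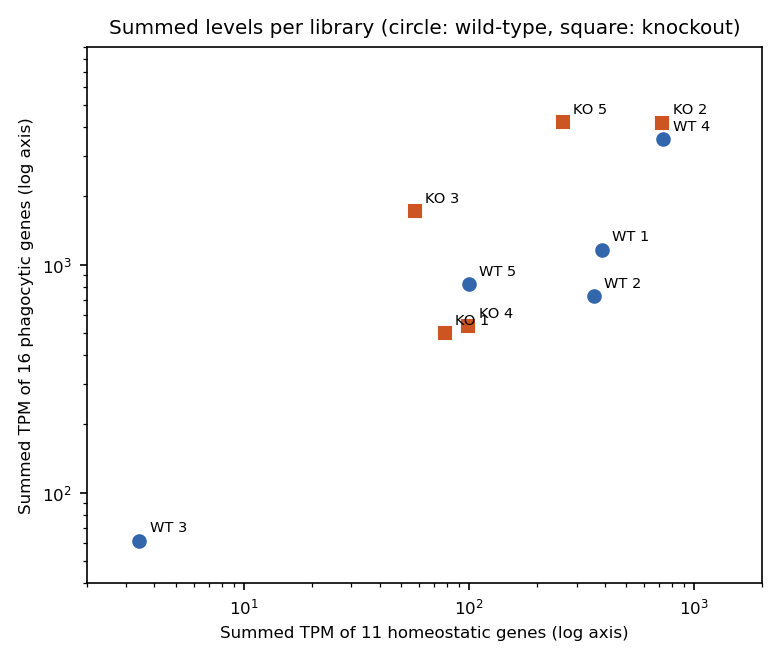
Summed TPM of the 11 homeostatic genes (horizontal, log axis) against that of 16 phagocytic genes without Apoe and Hmox1 (vertical, log axis) in each library. Wild-type 4 and knockout 2 lie together at the upper right, and wild-type 3 lies at the lower left. Knockout 5 has a phagocytic sum (4199 TPM) close to that of knockout 2 (4191 TPM) and above that of wild-type 4 (3546 TPM). Its homeostatic sum is lower (260 TPM).

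Across libraries the members moved together. Over the 351 pairs of the 27 tested members, Spearman's rho over the 10 libraries had a median of 0.64 and ran from -0.21 to 0.97, and 345 pairs were above 0. The median over all pairs of the 11744 tested genes was 0.115. Among the 7 libraries without the 3 that stand apart, the medians were 0.782 for the members and 0.071 for all genes. All points share their library and its scaling, so these are descriptions of 10 libraries. Pairs within the homeostatic group had a median of 0.699, pairs within the phagocytic group 0.673, and pairs between the groups 0.592. In the 7 libraries the last value was 0.786, close to the 0.821 and 0.714 within the groups. The within-genotype SD on the log2(TPM + 1) scale had a median of 2.2 over the members and 1.2 over all tested genes, and 26 of the 27 members were above the latter.

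The members closest to the common pattern were Mpeg1 (median rho with the other 26 of 0.81), C1qc (0.75), Cx3cr1 (0.75), Tyrobp (0.75) and Cd53 (0.74). Mpeg1 was most like Cx3cr1 (rho 0.95), and Cx3cr1 was also close to Laptm5 (0.95). Farthest from it were Spi1 (0.29), Aif1 (0.30), Lgmn (0.35), P2ry12 (0.39) and Fcer1g (0.44). Without the 3 libraries, P2ry12 had a median rho of 0.82 and Aif1 of 0.64, while Spi1, Lgmn and Fcer1g stayed at 0.38, 0.43 and 0.41. P2ry12 was thus unlike the rest mainly through those libraries. Apoe was most like Lgals3 (0.91), and Hmox1 was most like Fcgr3 (0.97) and C1qb (0.96). P2ry12 was unlike these genes over the 10 libraries, with a rho of -0.12 with Lgals3 and 0.01 with Hmox1. Without the 3 libraries, the lowest rho between any homeostatic and any phagocytic gene was 0. The negative value of P2ry12 with Lgals3 thus did not hold there.

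**Figure D4:**
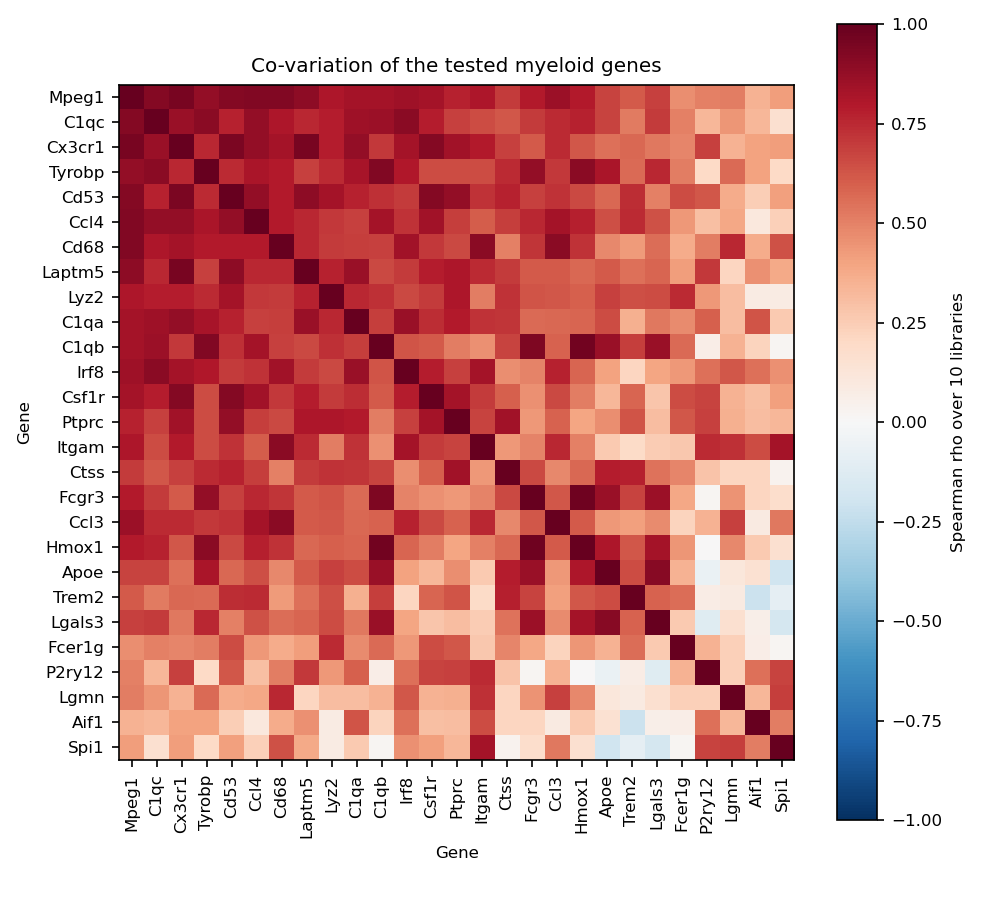
Spearman's rho over the 10 libraries for each pair of the 27 tested genes, ordered by the median rho of a gene with the others. Most of the matrix is red (345 of 351 pairs are above 0), and the last 5 genes, Fcer1g, P2ry12, Lgmn, Aif1 and Spi1, are pale.

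For 12 pairs, a two-sided permutation test with 100000 resamples was run on log2(TPM + 1) over the 10 libraries, and p was adjusted over the 12 by Benjamini-Hochberg. The test asks only whether 2 genes are related at all, and the median rho over all pairs of members was 0.64. A small p therefore does not set a pair apart from other pairs of members. Csf1r and Cx3cr1 had Pearson's r = 0.93 (permutation p = 5e-05, adjusted p = 0.0006) and rho = 0.92 (permutation p = 0.00062, adjusted p = 0.00744). C1qb and C1qc had r = 0.92 (permutation p = 0.0002, adjusted p = 0.0012) and rho = 0.85 (permutation p = 0.00302, adjusted p = 0.0127). Without the 2 libraries farthest from the median of the first gene, r was 0.83 and 0.86 for these pairs, and in the 7 libraries it was 0.93 and 0.92. C1qa and C1qc had r = 0.92 (permutation p = 0.00042, adjusted p = 0.00168) and rho = 0.85 (permutation p = 0.00317, adjusted p = 0.0127), with r = 0.76 without the 2 farthest libraries and 0.94 in the 7 libraries. C1qa and C1qb, by contrast, had r = 0.80 (permutation p = 0.00458, adjusted p = 0.00924) and rho = 0.69 (permutation p = 0.032, adjusted p = 0.0592). Without wild-type 3 and knockout 1 r was 0.42, so the size of r depended on those libraries. Cx3cr1 and P2ry12 had r = 0.77 (permutation p = 0.00576, adjusted p = 0.00987) and rho = 0.68 (permutation p = 0.0346, adjusted p = 0.0592), with r = 0.74 without the 2 farthest libraries and 0.93 in the 7.

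Cd68 and Lyz2 had r = 0.81 (permutation p = 0.00462, adjusted p = 0.00924) and rho = 0.70 (permutation p = 0.0302, adjusted p = 0.0592), with r = 0.72 without the 2 farthest and 0.81 in the 7 libraries (adjusted permutation p = 0.0551). Csf1r and Ctss had r = 0.85 (permutation p = 0.00305, adjusted p = 0.00915) and rho = 0.60 (permutation p = 0.0732, adjusted p = 0.11). Ccl3 and Ccl4 had r = 0.77 (permutation p = 0.00856, adjusted p = 0.0128) and rho = 0.83 (permutation p = 0.0052, adjusted p = 0.0156). For these last 2 pairs r was 0.48 and 0.49 without the 2 farthest libraries, so the size of r depended on those. In the 7 libraries r was 0.90 and 0.79. The adaptor genes Tyrobp and Fcer1g had r = 0.55 (permutation p = 0.0963, adjusted p = 0.105) and rho = 0.52 (permutation p = 0.133, adjusted p = 0.16), which did not pass; r was 0.02 without wild-type 3 and knockout 5 and 0.56 in the 7 libraries. Apoe and Csf1r had r = 0.62 (permutation p = 0.0555, adjusted p = 0.0666) and rho = 0.33 (permutation p = 0.349, adjusted p = 0.38), with r = 0.61 without the 2 farthest libraries and 0.83 in the 7 (adjusted permutation p = 0.0491). Tyrobp and Trem2 fell into separate clusters of libraries, with Trem2 at 0 in 2 libraries and at least 21.9 TPM in the others, and Cd74 was at 0 in 9, so no pooled value is given for these 2 pairs.

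Between the genotypes, no member passed the test. The comparison asks which transcripts differ in Hb9-GFP ganglion cells that lack Satb1. With limma and Benjamini-Hochberg adjustment over all 11744 tested genes, 0 of the 27 tested members had an adjusted p under 0.05 (0.992 to 0.998), where 0% of all tested genes did. At an unadjusted p under 0.05 there was 1 member, Fcer1g, where 3.31% of all tested genes had one. Fcer1g no longer had one without wild-type 3, knockout 2, knockout 3 or knockout 5, each left out alone, nor with replicate number as a block or with no filter on low values. For 0 of the 27 did the 5 knockout and 5 wild-type libraries not overlap, against 0.502% of all tested genes. The members' differences (knockout minus wild-type on the log2(TPM + 1) scale, which understates changes of low values) had a median SE of 1.1, compared with 0.775 over all tested genes. Differences of several-fold were therefore within the spread between replicates. Cd14, Mrc1, Cybb and Cd74 were too low to be tested.

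The largest difference was that of Fcer1g, 2.89 (SE 1.21, 95% interval 0.36 to 5.42; limma adjusted p = 0.992), from 35.9 ± 37.5 TPM across wild-type to 495 ± 616 TPM across knockout (SD, n = 5 each). It was 1.99 to 3.73 with each library left out in turn and 3.75 without the 3 libraries that stand apart. Next came Lgals3 at 1.73 (SE 0.997) and Hmox1 at 1.64 (SE 1.93, 95% interval -2.39 to 5.68), and Lgals3 did not pass the filter without the 3 libraries. Hmox1 was at -0.02 without knockout 5 and -0.14 without the 3 libraries. Fcgr3 had a difference of 1.18 (SE 1.18) and C1qb of 1.0 (SE 1.28); the latter was -0.34 without wild-type 3 and 0.52 without the 3 libraries. Fcgr3 was at 0.31 without knockout 5, 0.32 without the 3 libraries, 0.57 without knockout 2, 0.59 without wild-type 3 and 2.07 without knockout 3. In the other direction, Ccl4 was at -1.20 (SE 1.33), Ccl3 at -1.16 (SE 1.32) and Irf8 at -1.09 (SE 0.87). Ccl4 was at 0.10 without wild-type 4, the library that held its highest level, and Ccl3 at -0.03. Without the 3 libraries they were at -2.94 and -2.35. Irf8 was at -1.70 without wild-type 3 and -1.10 without the 3 libraries. Each of these 8 genes had a limma adjusted p of 0.992.

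Of the 27 tested members 15 were higher and 12 lower in knockout, a share of 55.6% higher where 32.6% of all tested genes were. The median difference was 0.17, beside -0.31 over all tested genes. Median centring of the libraries, which moved the median of all genes to 0.07, put 20 members above 0, and quantile normalization 19. By role, 12 of 16 tested phagocytic genes were higher, with a median of 0.79, and 3 of 11 homeostatic genes, with a median of -0.06. The homeostatic count was 8 after median centring and 7 after quantile normalization. Single libraries moved both counts: without knockout 2 the homeostatic count was 0 of 10 tested and without wild-type 3 it was 1 of 11, while the phagocytic count was 6 of 16 without wild-type 3 and 6 of 15 without the 3 libraries that stand apart. The difference between the role groups was not tested.

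**Figure D5:**
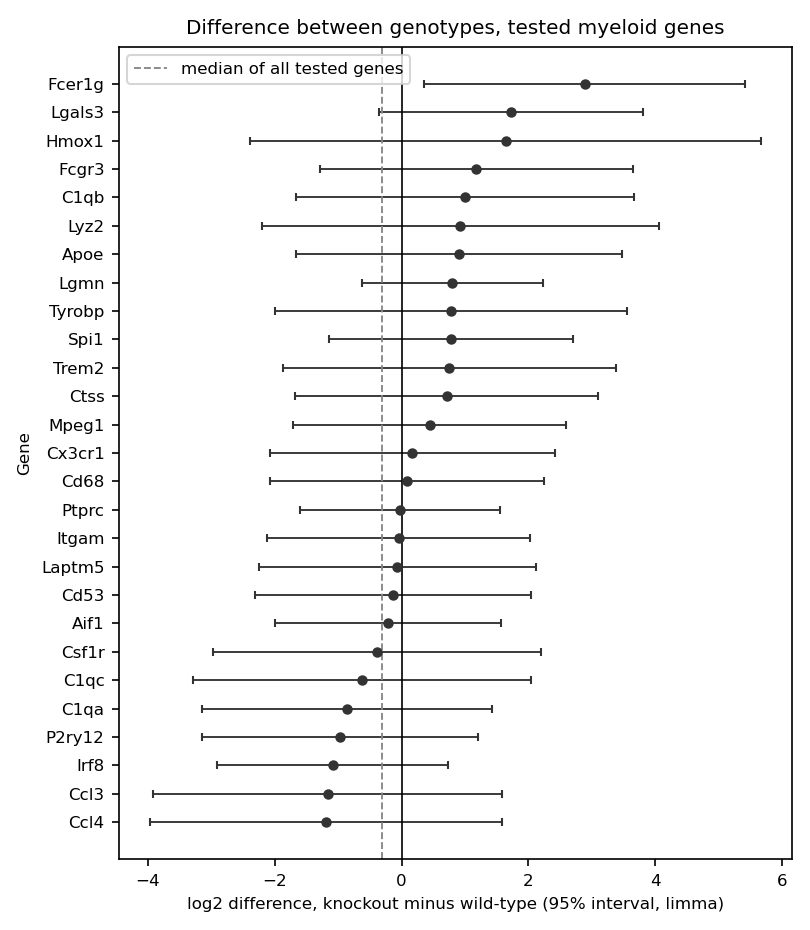
Difference between genotypes (knockout minus wild-type, log2(TPM + 1)) with its 95% interval from limma for each of the 27 tested genes; the dashed line is the median of all tested genes (-0.31). All intervals but that of Fcer1g (0.36 to 5.42) cross 0.

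Genes of the same pathways outside the 31 were read from further lists. None of their tested genes passed (limma, Benjamini-Hochberg adjusted p under 0.05), and 1, Ctsz, had an unadjusted p under 0.05. Of 11 tested homeostatic genes, 6 were higher and 5 lower, with a median of 0.04. The Fc receptor-like gene Fcrls, a marker of resident microglia, was listed at 0 in wild-type 3, reached 24.8 to 73.2 TPM in the other wild-type libraries and 6.05 to 81.6 TPM across knockout. Sall1, a transcription factor gene of resident microglia, was highest in wild-type 4 (24.2 TPM) and knockout 2 (11 TPM), as was the homeostatic membrane protein gene Tmem119 (13.9 and 6.5 TPM). Of 15 tested phagocytic genes, 10 were higher and 5 lower, with a median of 0.60. The cathepsin Z gene Ctsz was at 0 to 75.6 TPM across wild-type and at 21.4, 87.4, 230, 85.8 and 3547 TPM across knockout 1 to 5. The progranulin gene Grn was at 27.4 to 524 TPM across wild-type and 43.2 to 2101 TPM across knockout, and the cathepsin D gene Ctsd at 209 to 2743 and 155 to 2478 TPM. These 3 lysosomal genes, which neurons also express, were highest in knockout 5 or wild-type 4.

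Among 5 tested genes of TYROBP and Fc receptor signalling, 2 were higher and 3 lower. Hcst, which encodes the adaptor DAP10 and lies beside Tyrobp in the genome, was at 0 to 4.88 TPM across wild-type and at 0, 18.7, 0, 5.02 and 53.9 TPM across knockout. The phosphatase gene Inpp5d was highest in wild-type 4, at 31.1 TPM. Of 6 tested complement genes 2 were higher and 4 lower. The C3a receptor gene C3ar1 was highest in wild-type 4 (33.1 TPM) and knockout 2 (48.9 TPM), in the pattern of Cx3cr1, and the integrin beta 2 gene Itgb2 was highest in knockout 5, at 86.1 TPM. The complement regulator genes Cd59a and Cd55, which are not myeloid markers, had no such pattern. Of 6 tested inflammatory genes 2 were higher and 4 lower. The chemokine gene Ccl2 was highest in wild-type 4 (34.3 TPM) and knockout 2 (22 TPM), while Ccl12 stood at 103 TPM in wild-type 3, the library with the lowest level of most members.

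Transcripts of other cell types were read in the 3 libraries most often among the highest for a member (wild-type 4, knockout 2 and knockout 5) and in the 3 most often among the lowest (wild-type 3, knockout 1 and knockout 3). By summed level knockout 3 was not low, since Fcer1g alone stood at 1483 of its 1798 TPM. Rod photoreceptor genes summed to 499, 67.7 and 35.6 TPM in the first 3 and to 16.4, 319 and 552 TPM in the second. Endothelial and pericyte genes summed to 32, 8.17 and 4.25 TPM in the first 3 and to 59.3, 3.41 and 1.97 TPM in the second. Erythroid genes summed to 77.6, 1.35 and 272 TPM in the first and to 0, 0.293 and 2.7 TPM in the second, and Müller glia and astrocyte genes to 400, 493 and 2230 TPM and to 464, 317 and 190 TPM. The erythroid sums thus partly followed the order of the myeloid genes, and their part in it was not tested. The ribosomal protein share was 6.33%, 4.6% and 12.8% in the first and 3.72%, 4.28% and 7.88% in the second. Pan-ganglion cell genes summed to 20169, 27090 and 18740 TPM in the first and to 32784, 20104 and 104079 TPM in the second, the last mostly from the neurofilament gene Nefl at 94381 TPM in knockout 3. The direction-selective ganglion cell genes, Satb1 among them, summed to 719 to 1565 TPM across wild-type and 150 to 571 TPM across knockout. Within this list, Cartpt was at 56.8 to 843 TPM across wild-type and 1.63 to 47.3 TPM across knockout (limma adjusted p = 0.134). Its genotypes did not overlap, as for 0.502% of all tested genes, while those of Satb1, Cdh6 and Fstl4 did. Of the 8 tested genes in this list, 7 were lower in knockout and 1 was higher, with a median difference of -0.94. Over all tested genes, 32.6% were higher. At an unadjusted limma p under 0.05 there were 3 genes of the list, where 3.31% of all tested genes had one. None passed the adjusted threshold.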

How the data were processed

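Single-end RNA-seq was made from amplified cDNA of sorted cells. The authors deposited 1 table of log10(TPM + 1) values for 23746 rows. Base and offset were read from the values, since back-transformed libraries sum to 1000000 TPM. The submitters' processing notes list TopHat2 2.0.10, Cufflinks and mm10; the counting step, annotation and strand setting were not given in the sources used here. Amplification from few cells adds variation, and an exact 0 may be an estimate that failed.

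Rows named by a number (26, at most 0.198% of a library) were left out and repeated symbols summed. The 11744 genes that reached 1 TPM in 5 or more libraries were tested on log2(TPM + 1), pseudocount 1, with limma 3.58.1 in R 4.3.3 (genotype only, mean-variance trend, Benjamini-Hochberg threshold 0.05). The code of the fit was also run on simulated data with independent noise for each gene. Such data lack the variation that genes of 1 library share here, so that run does not check the fit for these libraries. Correlations used permutation tests (SciPy 1.17.1, NumPy 2.4.6). Libraries were called clustered where 1 gap took up most of a gene's range with at least 2 libraries on each side. The limma p-values set the genotype difference against the spread between these libraries. Permutation p-values ask whether 2 genes are related over the libraries.

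The members, role groups and further lists were chosen with earlier results of these data known. All members were named; every library value was given for members with a median of at least 10 TPM or a difference of at least 1.5, fold changes for the 8 largest, and, of other lists, genes among the 4 with the highest means. The C1qb to C1qc ratio, Sall1, Tmem119, H2-Ab1, Nefl and ferritin genes, and the role group counts under other scalings, were chosen or added after values were seen. Alternatives covered scaling, pseudocount, filter, block, weights, variance model and libraries left out. Gene positions are from GENCODE M21 (GRCm38, the mm10 assembly).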

Additional observations from a re-analysis of the deposited data

Results flagged for a closer look

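In 4 of 54 groups checked (27 genes in 2 genotypes, 5 libraries each, on the log2(TPM + 1) scale), 1 library was far from the other 4: the gap to its neighbour, as a share of the group's range, was above Dixon's critical value of 0.71. Chance alone gives about 1 such group in 20. Wild-type 3 was far below the other wild-type libraries for Tyrobp (gap share 0.766), Apoe (0.736) and Ctss (0.721). Knockout 2 was far above the other knockout libraries for P2ry12 (0.714).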

How the results depend on the processing

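The count of 0 members called held in all 21 alternative fits. Over all genes, limma called 3 with library weights, 1 with no mean-variance trend and 0 to 1 with each library left out; none was a member. The number of members higher in knockout was 15 of 27 and ranged from 7 to 20 with each library left out (7 without wild-type 3, 9 without knockout 2), was 9 without the 3 libraries that stand apart and 4 of the 6 genes with at least 1 TPM in every library. Their median difference ran from -0.56 (without knockout 2) to 0.76 (without wild-type 4) and was -0.48 without wild-type 3, so its sign depended on single libraries. Homeostatic genes higher in knockout numbered 8 after median centring, 7 after quantile normalization and 0 to 8 with each library left out; phagocytic ones numbered 6 without the 3 libraries and 6 to 13 with each left out. The difference turned to -0.14 and -0.02 for Hmox1 (without the 3 libraries, without knockout 5), -0.34 for C1qb (without wild-type 3) and 0.10 for Ccl4 (without wild-type 4). With each library left out, Hmox1 ranged from -0.024 to 3.23, C1qb from -0.34 to 1.82 and Ccl4 from -2.12 to 0.096. With replicate number as a replicate block, 0 genes were called, and 830 had an unadjusted p under 0.05 against 389 without it. Same-numbered libraries did not all deviate together (correlations of deviations -0.03 to 0.36), yet 5 of 10 libraries correlated best with their own number. The numbers were not taken as pairs in the main fit, and these values do not settle whether they are. Over 7 libraries, r was 0.79 for Ccl3 with Ccl4 and 0.81 for Cd68 with Lyz2, neither past the threshold, while Apoe with Csf1r passed at 0.83, and at 0.68 after median centring. The cause of these shifts was not tested beyond the libraries or genes left out. Unknown depth limits what values near 0 can show.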

Other observations

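Ferritin genes, which store iron and were looked at after the Hmox1 values had been seen, were also highest in knockout 5. Fth1 was at 1048, 970, 1208, 1441 and 2001 TPM across wild-type 1 to 5 and at 1459, 3894, 550, 1964 and 13856 TPM across knockout 1 to 5. Ftl1 was at 1265, 1508, 970, 5002 and 3220 TPM across wild-type and at 1442, 4948, 2964, 3494 and 13871 TPM across knockout. Both genes have many processed pseudogenes, so their levels are uncertain. Among other genes known to respond to oxidative stress, Nqo1 was listed at 0 in knockout 5, knockout 3 and wild-type 3, Gclm stood there at 43.7 TPM against 1.6 to 47.7 TPM elsewhere, and Srxn1 at 45.8 TPM against 1.8 to 65.8 TPM elsewhere. The thioredoxin reductase gene Txnrd1 was highest in knockout 5, at 71.4 TPM against 8.84 to 52.7 TPM elsewhere. The cystine transporter gene Slc7a11 was highest in knockout 2, at 42.6 TPM, and at most 4.8 TPM in the other libraries.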
